A study of Mus musculus with 52 samples.

Results

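In wild-type fibroblasts, peaks of the chromosomal protein SmcHD1 on chromosome 5 were gathered into long runs, and most of them lay on neither a CTCF nor a cohesin peak. The peaks described here were those of the SmcHD1 list of wild-type (wt) cells on chromosome 5 with a midpoint outside the window from 15 to 16 Mb, which holds a repeated gene family and 111 further peaks. They numbered 1560 of the 6993 SmcHD1 peaks in the list. Because members were chosen by their SmcHD1 peak call and position, the number of peaks on the chromosome and their SmcHD1 scores are given as descriptions, with no test.

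The study used chromatin immunoprecipitation with sequencing (ChIP-seq) in clonal lines of female mouse embryonic fibroblasts taken from embryos at E9.5 of an F2 cross of M. m. domesticus FVB and M. m. Castaneus, so that the autosomes are a mosaic of both strains. The wt line was the clone Wt2A1. The mut line was the clone Mut5A6, from an embryo homozygous for MomeD1, the MommeD1 allele, so that SmcHD1 was lacking from the germline on. The somKO group was the pair of clones A3-3 and D4, in which CRISPR/Cas9 removed SmcHD1 from an already established wild-type line other than Wt2A1 that carried an extra SmcHD1 allele, so somKO and wt cells differed in clone as well as in SmcHD1. SmcHD1 was mapped in 3 wt and 3 mut libraries, CTCF in 3 wt, 3 mut and 4 somKO libraries, and Rad21 in 2 wt, 2 mut and 4 somKO libraries. Each of the 8 lists was called by the authors on the pooled reads of its group, so replicate error could not be computed and no difference between groups was tested. Intervals are 95% Wilson intervals, which cover counting error only, and neighbouring peaks are not independent of each other. The depth behind the lists is unknown. The SmcHD1 null cells serve as the background of the SmcHD1 antibody, and their list held 244 peaks, 21 of them on chromosome 5.

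SmcHD1 is a non-canonical member of the SMC family, the ATPases that organise chromosomes, and is known above all for its part in silencing the inactive X chromosome and some imprinted and clustered autosomal genes. CTCF is a zinc finger protein that binds a long DNA motif and marks the borders of many chromatin loops. Rad21 is the subunit that closes the ring of cohesin, the complex that extrudes loops and is often halted at CTCF. Chromosome 5 carries several genes of the Tbx, Msx, Lhx and Hmx families, which encode transcription factors of limb, heart and nervous system development.

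The sequences below show what these peaks look like at the base level. Each is 300 bases of the plus strand of mm10 at the midpoint of a peak, in lower case, with matches to any of 6 motifs in capitals. The first 2 have the highest scores outside exons at a promoter and in a gene with both CTCF and Rad21 in wt. The peak on the Nkx1-1 side is chr5:33438249-33438548 at the start of the non-coding gene Gm43851, and its capitals mark 2 matches to GGGCGG. The Tbx3os1 peak is chr5:119571595-119571894, in an antisense gene next to Tbx3, and its capitals mark a TG repeat read on the other strand. The next 2 are at chr5:112718567-112718866 within Myo18b and at chr5:139982164-139982463 between genes, on the Elfn1 side. They are the highest scoring peaks outside exons without a wt CTCF or Rad21 peak that were not repeated by the word count defined below. They were chosen after their values were seen. The Elfn1 side sequence is itself a tandem repeat of similar units. It passed the word count with 14.4% of the words of its peak found again in the genome. The last 2 are chr5:94356735-94357034 within AA792892 and chr5:129254362-129254661 between genes. They are the highest scoring peaks outside exons without a wt CTCF or Rad21 peak when repeated sequence is allowed.
Nkx1-1 side promoter: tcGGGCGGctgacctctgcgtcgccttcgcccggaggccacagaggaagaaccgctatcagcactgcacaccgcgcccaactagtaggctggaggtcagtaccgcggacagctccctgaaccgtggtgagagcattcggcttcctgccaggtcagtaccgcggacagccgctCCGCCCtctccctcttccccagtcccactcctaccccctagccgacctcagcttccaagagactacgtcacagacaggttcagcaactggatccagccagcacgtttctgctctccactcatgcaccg
Tbx3os1 intron, CTCF and Rad21: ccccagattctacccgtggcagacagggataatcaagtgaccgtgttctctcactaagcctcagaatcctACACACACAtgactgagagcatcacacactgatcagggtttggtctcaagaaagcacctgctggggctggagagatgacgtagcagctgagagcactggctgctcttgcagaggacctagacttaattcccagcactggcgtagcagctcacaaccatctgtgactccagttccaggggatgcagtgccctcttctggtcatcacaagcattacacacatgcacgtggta
Myo18b intron, neither: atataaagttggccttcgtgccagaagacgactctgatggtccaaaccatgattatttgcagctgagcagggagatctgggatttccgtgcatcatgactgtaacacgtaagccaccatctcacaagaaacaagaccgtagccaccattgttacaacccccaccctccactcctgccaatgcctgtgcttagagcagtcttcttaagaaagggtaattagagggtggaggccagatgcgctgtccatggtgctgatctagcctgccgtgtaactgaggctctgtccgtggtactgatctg
Elfn1 side, neither: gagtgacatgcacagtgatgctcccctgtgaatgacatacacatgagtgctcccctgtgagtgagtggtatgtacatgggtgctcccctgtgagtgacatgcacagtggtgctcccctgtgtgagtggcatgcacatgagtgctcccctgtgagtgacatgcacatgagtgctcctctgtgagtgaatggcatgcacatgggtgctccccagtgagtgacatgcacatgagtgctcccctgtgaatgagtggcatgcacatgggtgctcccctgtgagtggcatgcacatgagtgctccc
AA792892 intron, neither: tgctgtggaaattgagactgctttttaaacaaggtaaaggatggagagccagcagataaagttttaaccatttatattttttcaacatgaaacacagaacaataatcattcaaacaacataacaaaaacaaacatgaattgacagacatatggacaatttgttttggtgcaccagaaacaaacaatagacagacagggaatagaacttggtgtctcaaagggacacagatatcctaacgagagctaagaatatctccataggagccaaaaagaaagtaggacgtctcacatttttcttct
Adgrd1 side, neither: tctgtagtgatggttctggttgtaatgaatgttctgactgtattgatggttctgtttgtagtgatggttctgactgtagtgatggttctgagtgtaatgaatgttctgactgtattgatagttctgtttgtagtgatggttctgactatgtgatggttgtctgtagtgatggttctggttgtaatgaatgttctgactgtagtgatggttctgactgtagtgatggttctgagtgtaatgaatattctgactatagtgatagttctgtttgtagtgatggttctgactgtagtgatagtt
None of the last 4 sequences held any of the 6 motifs. The AA792892 sequence was repeat-masked over 95.3% of its bases, and the Myo18b sequence over 0%.

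SmcHD1 peaks were denser on chromosome 5 than on any of the 18 other autosomes. Chromosome 5 carried 10.3 peaks per Mb, chromosome 4 came next with 2.69, and chromosome 3 was lowest with 0.269. The mean of the 18 was 1.49 ± 0.821 (SD over chromosomes), and X carried 10.5. Part of this order depends on repeated sequence, defined here as a peak in which at least 50% of the 32-base words occur again in the genome. A tandem repeat with differing units can fall below this limit, as the Elfn1 side peak did. Such peaks made up 11.9% of the chromosome 5 peaks (186 of 1560), 52.4% of those on the other autosomes and 73.4% of those on X. Without them chromosome 5 had 9.11 peaks per Mb, X had 2.79, and the highest other autosome, chromosome 11, had 2.16. With all peaks, those of chromosome 5 were also weaker, with a median score of 36 (quartiles 26 and 54) against 49 on the other autosomes and 44 on X. Without repeated peaks the medians were 36, 45 and 36 in that order, so chromosome 5 was level with X. The score is the value written by the peak caller, and its lowest value of 13 in every list is what 10 times −log10 of a q of 0.05 gives when cut to a whole number. With a score of at least 50 chromosome 5 kept 449 peaks, or 2.98 per Mb, against 4.19 on X and at most 1.48 on another autosome (chromosome 8). CTCF and Rad21 peaks were also dense on chromosome 5, at 34.0 and 35.5 per Mb in wt against 23.5 ± 6.47 and 26.7 ± 6.58 on the other autosomes. It ranked 3 of 19 autosomes for each, behind chromosome 11 in both lists. The paper adjusted its expression counts for differences in chromosome copy number. The copy number of chromosome 5 in these clones was not examined here, and its bearing on peak density was not tested.

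**Figure D1:**
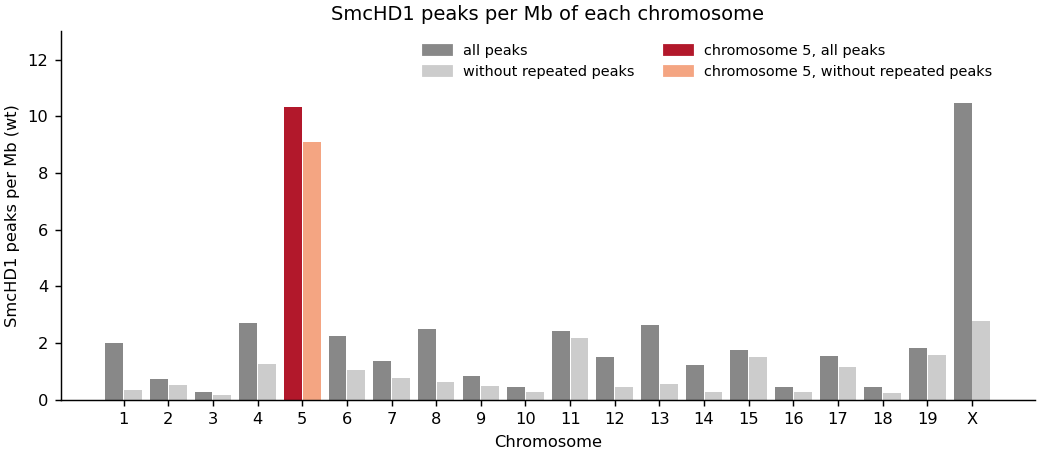
SmcHD1 peaks of wt per Mb of assembled sequence (vertical axis) for each chromosome (horizontal axis), with all peaks in the darker bars and peaks of repeated sequence left out in the paler bars. Chromosome 5 and X are level with all peaks, at 10.3 and 10.5 per Mb, while without repeated peaks chromosome 5 stands at 9.11 and X at 2.79.

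The peaks lay mostly in the distal part of the chromosome. From 100 Mb to the distal end there were 1164 peaks, 74.6% of all, at 22.5 per Mb. The stretches from 0 to 50 Mb and from 50 to 100 Mb held 195 and 201 peaks, at 3.98 and 4.02 per Mb. The distal part was also richer in protein-coding gene starts, with 12.8 per Mb against 6.49 and 5.38, and in wt CTCF peaks, with 58.7 per Mb against 22.7 and 19.3. Of 150 windows of 1 Mb, 34 held no SmcHD1 peak, against 1391 of 2303 windows on the other autosomes. The longest empty stretch ran from 7 to 13 Mb and still held 31 protein-coding gene starts, 51 CTCF peaks and 60 Rad21 peaks in wt. The 5 densest windows were 128 to 129 Mb with 101 peaks, 119 to 120 Mb with 88, 112 to 113 Mb and 148 to 149 Mb with 78 each, and 120 to 121 Mb with 58. These windows hold, in that order, Tmem132d, Fzd10, Piwil1 and Rimbp2, then Tbx3 and Tbx5, then Sez6l and Myo18b, then Mtus2 and Slc7a1, and then Rbm19 and Lhx5.

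To describe this clustering, peaks with midpoints at most 100 kb apart were joined, and a run was called from 15 peaks on, limits chosen after the positions had been seen. Chromosome 5 had 27 runs with 1115 peaks, 71.5% of all, in 12.4 Mb or 8.22% of the sequence. The runs held 8.81% of the protein-coding gene starts (111 of 1260). The largest, chr5:127161619-129717502, held 177 peaks over 2556 kb from Tmem132c to Mrps17, including Fzd10, which encodes a Wnt receptor, and Piwil1, which acts in the piRNA pathway of germ cells. A run of 89 peaks at chr5:147860239-148451356 covered Mtus2 and Slc7a1, and one of 82 at chr5:119551792-120116534 covered Tbx3, Tbx5 and Rbm19. Further runs covered Sez6l and Myo18b (76 peaks), Rxfp2, Fry and Brca2 (50), and Dhx15 to Zcchc4 (47). Smaller runs surrounded single developmental genes, with 22 peaks around Hmx1, 21 around Msx1 and 19 around Barhl2. Runs were not particular to chromosome 5. With all peaks, X had 25 runs with 1198 peaks, and the 18 other autosomes together had 31 runs with 1343 peaks, on 11 chromosomes. Left to peaks of non-repeated sequence, chromosome 5 had 24 runs with 993 peaks, the 18 other autosomes together had 9 with 214, on 5 chromosomes, and X had 1 with 22. The first run, 39 peaks at chr5:14904040-14996172 by Speer4e, was made up of repeated sequence in all 39 and borders the window left out. It is part of the same repeated cluster, of which the nearest peak inside the left-out window was chr5:15006821-15007091 with a score of 67 and the nearest outside was chr5:14995809-14996172 with a score of 74.

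**Figure D2:**
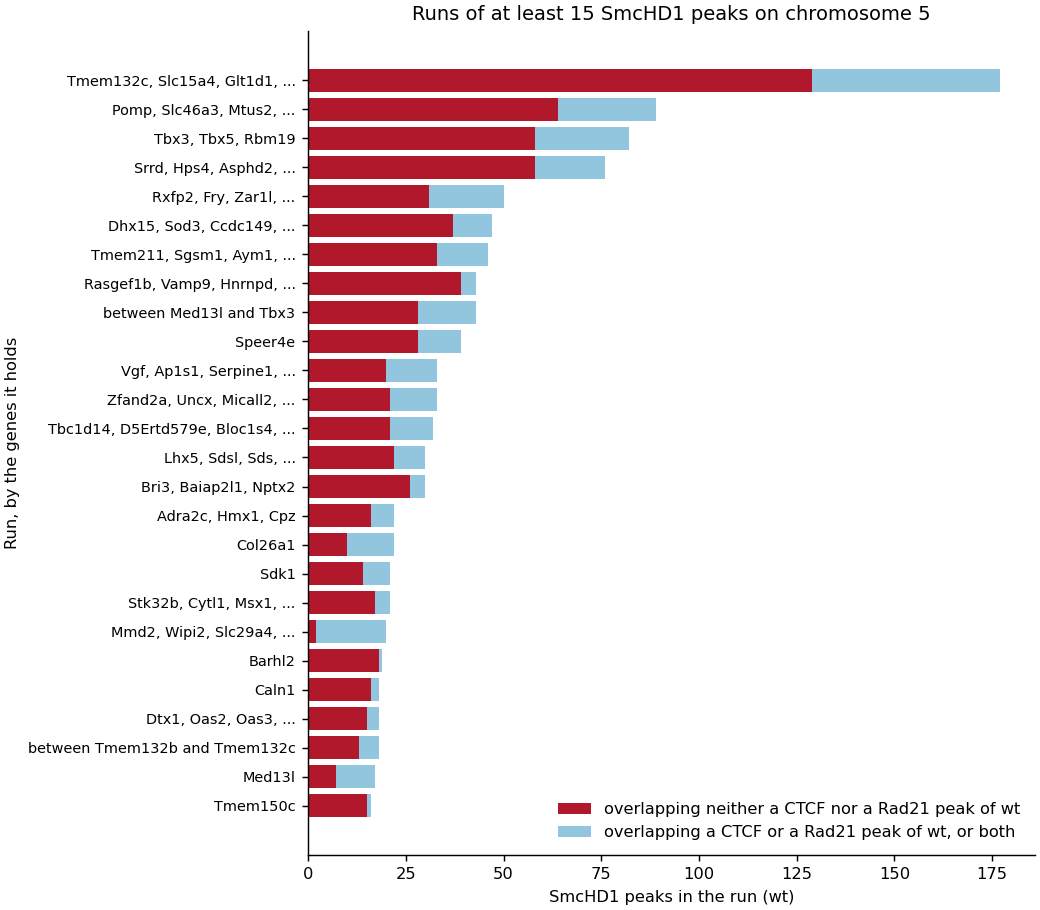
Number of SmcHD1 peaks of wt (horizontal axis) in 26 of the 27 runs of chromosome 5 (vertical axis, named by the protein-coding genes they overlap, at most 3 shown). Dark bars count peaks that overlap neither a CTCF nor a Rad21 peak of wt and pale bars the others. In the largest run 129 of 177 peaks had neither, whereas in the run with Mmd2, Wipi2 and Actb 2 of 20 did.

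Single peaks were narrow, with a median width of 302 bp and a range from 186 to 5404 bp, and 65 were at least 1 kb wide. At the threshold, 9 peaks had the lowest score of 13 and 9.74% were under 20. At the other end, 84 peaks reached a score of 100 and 24 reached 200. By midpoint, 268 peaks (17.2%, interval 15.4 to 19.1) were within 1 kb of an annotated gene start, 660 (42.3%, 39.9 to 44.8) were in genes further from a start, and 632 (40.5%, 38.1 to 43.0) were between genes. Of the sequence of chromosome 5 itself, 3.92% is within 1 kb of a start, 46.5% in genes and 49.6% between them. Promoters thus held more peaks than their share of sequence. Of all peaks on the other autosomes 941 of 3483 (interval 25.6% to 28.5%) were at promoters, and of those on X 222 of 1792 (12.4%). Among peaks of non-repeated sequence the promoter share was 18.8% (16.8 to 20.9) on chromosome 5, 40.0% (37.7 to 42.4) on the other autosomes and 30.4% (26.4 to 34.7) on X. Chromosome 5 was thus above X with all peaks and below it without repeated ones. The median distance to a protein-coding gene start on chromosome 5, the other autosomes and X was 34.6, 26.0 and 39.3 kb with all peaks, and 36.8, 6.81 and 13.1 kb without repeated ones. An exon held the midpoint of 211 peaks.

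The 10 highest scores covered very different kinds of site. The 2 strongest peaks were found in SmcHD1 null cells as well. The first, chr5:143252922-143255537 in Zfp316 (a zinc finger gene), scored 1463 in wt and 240 in mut. The second, chr5:146261001-146261343 in an intron of Cdk8 (a kinase of the Mediator complex), scored 1219 in wt and 439 in mut, and lay on a CTCF peak in all genotypes with no Rad21 peak in any. The third was the Tbx3 promoter at chr5:119669569-119671796, with a score of 447 and no mut SmcHD1 peak. Tbx3 encodes a T-box transcription factor of limb and heart development. The next were in Rimbp2, a gene of presynaptic active zones (437), at the promoter of Bicdl1 (380) and between genes on the Adgrd1 side (345). Then came peaks between genes on the Elfn1 side (320), in AA792892 (307), within Slc15a4 (297) and at the promoter of Pcdh7 (291). The Slc15a4 peak was within 1 kb of the start of a gene that is not protein-coding. Its nearest protein-coding start was that of Glt1d1, 15.1 kb away. The Adgrd1 side and AA792892 peaks were of repeated sequence, with 73.4% and 87.3% of their words found again in the genome. The Pcdh7 peak, at a gene for a protocadherin of cell adhesion, was also the widest of all at 5404 bp and lay on CTCF and Rad21 peaks in each genotype.

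In all, 15 of the 1560 peaks (0.962%, 0.584 to 1.58) overlapped a peak of the null cells, where the share over all SmcHD1 peaks of the list was 2.33%. None of these 15 was weaker than a score of 17, the value of the peak at Agbl5, and 2 of them lay in runs. Besides Zfp316 and Cdk8, they included a pair of peaks at Mn1 with scores of 66 and 190, one at Tnrc18 with 229, one at Mafk with 158 and one at Cdc7 with 134. The mut score was the higher one at 4 of the 15 sites, with 73 against 17 at Agbl5, 143 against 134 for the Cdc7 peak, which lies within Tgfbr3, 115 against 98 at Denr and 108 against 66 at Mn1.

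Genes differed widely in how many peaks they held. Counting from 1 kb before the start to the end, 310 of the 1260 protein-coding genes of chromosome 5 (24.6%) held a peak, and 211 (16.7%) had one within 1 kb of the start. Mtus2, which encodes a microtubule-associated protein, held the most with 82 peaks in 359 kb, of which 62 overlapped neither a CTCF nor a Rad21 peak of wt. Sez6l followed with 28 and Myo18b, an unconventional myosin of muscle, with 27. Fry, a large regulator of cell shape, held 25, Rimbp2 held 24, and Rasgef1b and Tmem132d held 22 each. Tmem132c held 20 and Caln1, which encodes a neuronal calcium-binding protein, 18. Per length, Mtus2 had 22.8 peaks per 100 kb and Tmem132d 3.37. Among these genes few of the peaks were at the gene's start, with 2 in Mtus2 and Tmem132c, 1 in Sez6l, Rasgef1b and Tmem132d, and 0 in Myo18b, Fry, Rimbp2 and Caln1.

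Developmental regulators held a peak in 12 of 22 genes (54.5%, against 24.6% of all protein-coding genes) and at the start in 8 (36.4%, against 16.7%). Tbx5, the T-box gene of the forelimb and heart, held 8 peaks, none at its start. Barhl2, a homeobox gene of the nervous system, held 5, and Hmx1, Lhx5 and Tbx3 held 4 each. Msx1, Gsx1 and Nkx6-1 each held 1, at the start, with scores of 79, 86 and 84. Those without a peak included Shh, En2, Mnx1, Cdx2, Pdx1, Gsx2, Nkx3-2 and Gfi1. The 7 regulators in which no peak overlapped CTCF or Rad21 of wt were Barhl2, Hmx1, Gsx1, Msx1, Nkx1-1, Nkx6-1 and Uncx. The median number of peaks per gene was 1 for this list and 0 over all protein-coding genes.

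Chromatin regulators held a peak in 7 of 14 genes (50%, against 24.6% of all protein-coding genes) and at the start in 6 (42.9%, against 16.7%). All 7 had a wt Rad21 peak under at least 1 SmcHD1 peak, and 1 gene, Tnrc18, started within a run. Auts2, whose product joins a variant Polycomb complex, held 6 peaks, 5 of them at Rad21 and the strongest at its promoter with a score of 289. Auts2 spans 1106 kb, and these shares do not allow for gene length. Baz1b, Kmt2e, Nsd2 and Zfp644 held 1 each, at the start, with scores from 19 to 75. Of 14 housekeeping genes 4 (28.6%) held a peak, namely Ran, Gnb2, Mdh2 and Ywhag, at the start and at Rad21 in each. An overlap at the start was common on the chromosome, as 75 of all 268 promoter peaks had neither a CTCF nor a Rad21 peak of wt. Cytoskeleton and adhesion genes held a peak in 5 of 14 (35.7%). Growth factors and receptor kinases held one in 3 of 17 (17.6%, Tgfbr3, Flt1 and Pdgfa), and matrix and mineralised tissue genes in 1 of 9 (11.1%, Fras1). The adjacent receptor kinase genes Pdgfra, Kit and Kdr held none, nor did the bone and tooth genes Spp1, Ibsp, Mepe, Dmp1 and Dspp. Chemokines held 1 peak in 12 genes, in Ccl26. In tandem families few genes held a peak. The 11 Vmn2r, 10 Ugt2, 5 Gbp, 5 Csn, 3 Sult1 and 3 Pilr genes held no peak, and 1 gene each of Cyp3a (Cyp3a41b), Oas1 (Oas1c) and Speer4 (Speer4e) held one or more. The Speer4 count was set in part by the choice of members, since Speer4c and Speer4d lie in the window left out.

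The overlap with CTCF and cohesin was the exception rather than the rule. A wt CTCF peak overlapped 382 peaks (24.5%, 22.4 to 26.7) by at least 1 bp, and a wt Rad21 peak 436 (27.9%, 25.8 to 30.2). Over all SmcHD1 peaks of the genome these shares were 20.4% and 25.9%. Both were present at 245 peaks (15.7%), CTCF alone at 137 (8.78%), Rad21 alone at 191 (12.2%), and neither at 987 (63.3%, 60.8 to 65.6). Of the 6 CTCF and Rad21 lists over the 3 genotypes, 844 peaks met none and 186 met all. The next most frequent pattern was Rad21 in all genotypes without CTCF, at 93 peaks. On the other autosomes 60.5% of all peaks (58.9 to 62.1) had neither, close to chromosome 5, and on X 85.8% (84.1 to 87.4). The comparison depended on repeated sequence, which takes up much of the SmcHD1 list elsewhere. Among peaks of non-repeated sequence the share with neither was 60.1% (57.5 to 62.7) on chromosome 5, 36.7% (34.4 to 39.1) on the other autosomes and 58.3% (53.8 to 62.6) on X.

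The 4 classes by CTCF and Rad21 differed in strength and place. A wider peak meets another by 1 bp more readily, so width is not independent of the classes. Peaks with both had a median score of 46 and a median width of 397 bp, and lay a median of 10.5 kb from a protein-coding start. Those at Rad21 alone lay closest to starts, at 2.30 kb, with a score of 41. Those at CTCF alone lay 30.6 kb away with a score of 41, and those with neither 49.0 kb away with a score of 34 and a width of 282 bp. The weaker peaks thus met CTCF and Rad21 less often, and with a score of at least 50 the share with neither was 47.9% (215 of 449).

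Peaks in runs and outside runs differed in these shares. Runs were called by the density of SmcHD1 peaks, and held 8.81% of the protein-coding gene starts in 8.22% of the sequence. The shares at promoters, CTCF and Rad21 and the distances to starts are therefore not independent of that density. Among peaks of non-repeated sequence, 70.4% of those in runs (723 of 1027, 67.5 to 73.1) had neither protein, against 29.7% of those outside runs (103 of 347, 25.1 to 34.7). The promoter share was 9.64% in runs and 45.8% outside. A wt Rad21 peak overlapped 19.6% (17.3 to 22.1) in runs and 64.8% (59.7 to 69.7) outside, and a wt CTCF peak 22.6% (20.1 to 25.2) and 36.6% (31.7 to 41.8). With all peaks, 71.5% in runs and 42.7% outside had neither. Without repeated peaks the values outside runs were near those of the other autosomes, where 36.7% had neither, 40.0% were at promoters and 57.7% were at Rad21. The median distance to a protein-coding start was 47.0 kb in runs, 4.48 kb outside and 6.81 kb on the other autosomes. The runs themselves were not poor in CTCF, with 59.1 wt CTCF peaks per Mb against 31.7 on the rest of the chromosome, a ratio of 1.87, while wt Rad21 peaks came to 45.5 against 34.7 per Mb, a ratio of 1.31. The run from Mmd2 to Fscn1, which includes Actb, was unlike the others in that 16 of its 20 peaks were at Rad21. At the other end, in the run at Tmem150c 15 of 16 peaks had neither protein, as did 18 of 19 at Barhl2 and 39 of 43 from Rasgef1b to Hnrnpdl.

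**Figure D3:**
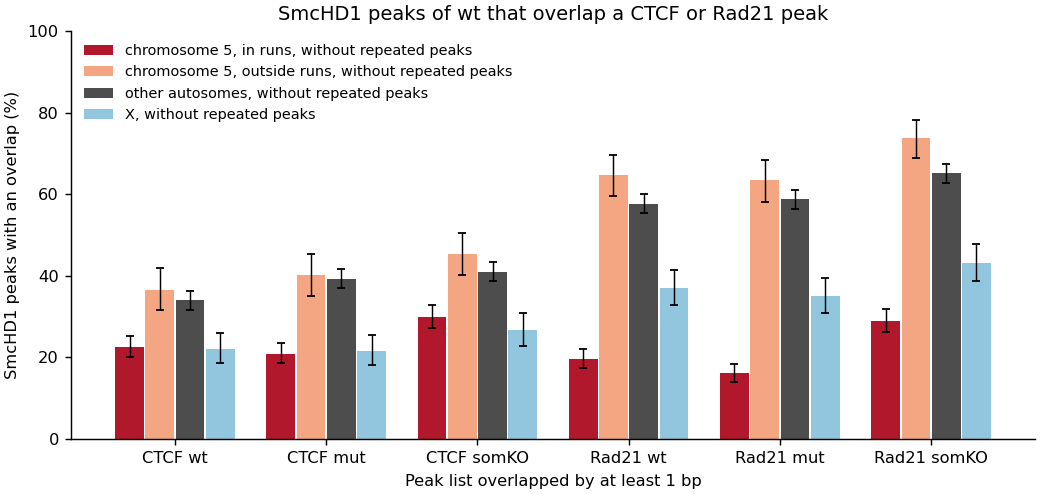
Share of SmcHD1 peaks of wt in percent (vertical axis) that overlap a peak of each CTCF or Rad21 list by at least 1 bp (horizontal axis), with 95% Wilson intervals as error bars and repeated peaks left out. Bars for chromosome 5 in runs are lowest for each Rad21 list, at 19.6% in wt against 64.8% outside runs and 57.7% on the other autosomes.

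**Figure D4:**
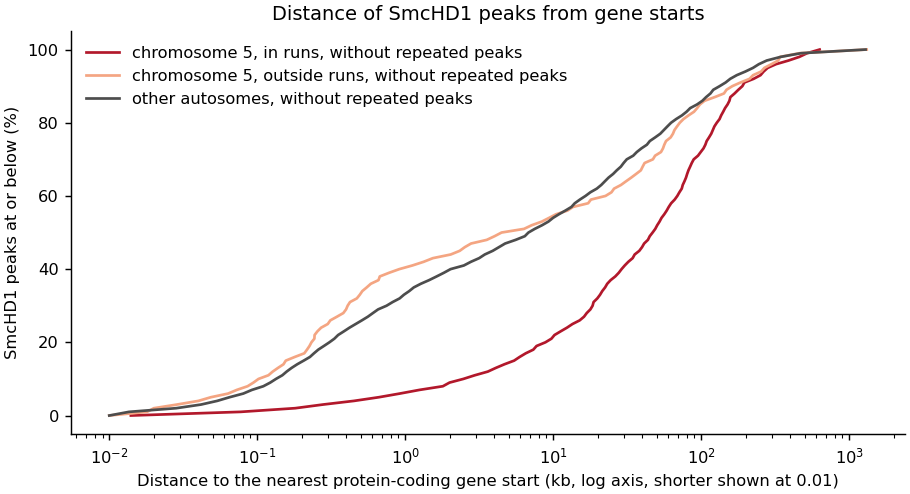
Cumulative share of SmcHD1 peaks of wt in percent (vertical axis) against the distance to the nearest protein-coding gene start in kb (horizontal axis, log scale), repeated peaks left out. The curve for peaks of chromosome 5 in runs lies to the right, with a median of 47.0 kb, and that for peaks outside runs, with 4.48 kb, lies close to that of the other autosomes, with 6.81 kb.

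Looked at from the other side, 7.10% of the wt CTCF peaks of chromosome 5 and 7.35% of its wt Rad21 peaks overlapped a SmcHD1 peak, the left-out window included. On the other autosomes the highest values were 2.27% (chromosome 6) and 3.28% (chromosome 19), and X had 7.11% and 10.3%. These shares are not independent of the number of SmcHD1 peaks, by which the members were chosen. For SmcHD1 peaks per Mb chromosome 5 stood at 6.92 times the mean of the other autosomes. For the shares of CTCF and Rad21 peaks it stood at 5.10 and 4.27 times. CTCF and Rad21 peaks with a SmcHD1 peak were stronger and wider than the other CTCF and Rad21 peaks of the chromosome. Outside the window from 15 to 16 Mb, the 338 such CTCF peaks had a median score of 772.5 against 440 for the 4781 others, and a median width of 624 against 439 bp. The 384 such Rad21 peaks had a median score of 302.5 against 129, and a median width of 1269 against 563 bp. A wider peak meets another by 1 bp more readily, so the split itself favours width. Scores were not compared at like width.

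By an overlap of 1 bp, most of the shared sites still carried CTCF and Rad21 in cells without SmcHD1, more so in somKO than in mut cells. With an overlap of 50% of both peaks, which left 115 CTCF and 66 Rad21 sites, the shares were 48.7% in mut and 53.9% in somKO for CTCF, and 48.5% and 31.8% for Rad21, so that the order turned for Rad21. With 1 bp, of the 382 SmcHD1 peaks on a wt CTCF peak, 321 (84.0%, 80.0 to 87.4) had a CTCF peak in mut and 366 (95.8%, 93.3 to 97.4) in somKO. Over all wt CTCF peaks of the genome 80.3% overlapped a mut peak and 92.4% a somKO peak. Of the 436 SmcHD1 peaks on a wt Rad21 peak, 344 (78.9%, 74.8 to 82.5) had one in mut and 426 (97.7%, 95.8 to 98.7) in somKO, where the genome-wide shares were 71.5% and 92.8%. At SmcHD1 peaks of the other autosomes the mut shares were 90.6% (88.4 to 92.4) for CTCF and 88.5% (86.5 to 90.3) for Rad21, so chromosome 5 was lower. In somKO the CTCF share on the other autosomes was 96.0% and the Rad21 share was 1099 of 1133. Over all wt peaks of chromosome 5 the mut shares were also below the genome, at 75.2% for CTCF and 66.0% for Rad21. Outside the left-out window, 86.1% of its wt CTCF peaks with a SmcHD1 peak overlapped a mut peak, against 74.4% of those without. For Rad21 these shares were 81.0% and 64.8%. Peaks with SmcHD1 were stronger and wider, and the shares were not compared at like score or width. Sites without a wt peak had one more often in the longer somKO lists than in mut. A CTCF peak was found at 125 of 1178 such SmcHD1 peaks (10.6%) in somKO and at 49 (4.16%) in mut, and a Rad21 peak at 150 of 1124 (13.3%) and 45 (4.00%). At such SmcHD1 peaks of the other autosomes the shares in somKO and mut were 8.97% (7.94 to 10.1) and 6.24% (5.38 to 7.23) for CTCF, and 10.8% (9.58 to 12.1) and 7.96% (6.93 to 9.12) for Rad21. The somKO values of chromosome 5 were thus near those elsewhere and the mut values below them. Overall 370 SmcHD1 peaks (23.7%) met a mut CTCF peak and 491 (31.5%) a somKO CTCF peak, against 21.4% and 25.6% of all SmcHD1 peaks of the genome. For Rad21 these were 389 (24.9%) and 576 (36.9%), against 25.8% and 32.1%. The lists differ in length, with 60204, 57798 and 69736 CTCF peaks and 67655, 66031 and 89974 Rad21 peaks in wt, mut and somKO. Cut to equal length by score, the somKO shares came to 26.8% for CTCF and 34.0% for Rad21.

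The runs gave the wider contrast. Inside them the wt list had 564 Rad21 peaks, the mut list 424 and the somKO list 879, a log2 ratio to wt of -0.41 for mut and 0.64 for somKO. On the rest of chromosome 5 the ratios were -0.15 and 0.45, and on the other autosomes -0.02 and 0.40. For CTCF the runs held 733, 641 and 1010 peaks, with ratios of -0.19 and 0.46, against -0.15 and 0.23 on the rest of the chromosome and -0.04 and 0.20 on the other autosomes. Of the 205 SmcHD1 peaks in runs on a wt Rad21 peak, 140 (68.3%, 61.6 to 74.3) had one in mut and 199 (97.1%) in somKO.

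Most of the lower Rad21 count in mut lay in 4 neighbouring runs around Tbx3, where 172 wt peaks stood against 51 in mut, while in the other 23 runs 392 stood against 373. On the rest of chromosome 5, outside runs, 4805 stood against 4341. For CTCF the counts were 118 against 73 in the 4 runs, 615 against 568 in the other 23 and 4386 against 3953 on the rest. The other 23 runs thus showed no wider contrast in mut than the rest of the chromosome. The 4 runs were singled out after their values had been seen. Between Med13l, a gene of the Mediator kinase module, and Tbx3 lies the run chr5:118787523-119415888, with 43 SmcHD1 peaks and no named protein-coding gene. The wt list had 66 Rad21 peaks there, the mut list 3 and the somKO list 94, with 38, 10 and 43 CTCF peaks in the same order. With lists cut to equal length by score, the run held 60, 3 and 53 Rad21 peaks and 38, 10 and 35 CTCF peaks. The somKO counts were then below wt, so the higher somKO counts depended on list length. Of its 66 wt Rad21 peaks 4.55% overlapped a mut peak and 77.3% a somKO peak, and of its 38 wt CTCF peaks 28.9% and 94.7%, the lowest mut shares of any run with at least 10 wt peaks. The median over such runs was 62% for Rad21 (17 runs) and 73.8% for CTCF (22 runs). Among its SmcHD1 peaks, 14 were on a wt Rad21 peak, 0 on a mut one and 19 on a somKO one. In the next run, with Tbx3, Tbx5 and Rbm19, the wt list had 35 Rad21 peaks, mut 12 and somKO 53, and the CTCF counts were 40, 32 and 68. In the run at Med13l they were 45, 23 and 54 for Rad21 and 15, 8 and 16 for CTCF, and in the run from Lhx5 to Tpcn1 26, 13 and 39 and 25, 23 and 46. Over these 4 runs, with 172 SmcHD1 peaks, 23.8% (18.1 to 30.7) of 172 wt Rad21 peaks overlapped a mut peak, against 67.1% (62.3 to 71.6) of 392 in the other 23 runs, while for somKO the shares were 86.6% and 93.6%. The window from 119 to 120 Mb had the lowest mut share of all windows of chromosome 5 with at least 10 wt peaks, for CTCF (44.7%, of 118 windows) and for Rad21 (9.88%, of 122 windows). The mut and wt cells are each 1 clone, so the SmcHD1 mutation and other differences between clones cannot be told apart here.

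Single sites in this neighbourhood, also chosen after their values had been seen, show the size of the difference. Scores are given in the order wt, mut, somKO. At the Tbx3 promoter CTCF scored 22854, 4846 and 30231, and Rad21 scored 15635, 1210 and 23921. At the SmcHD1 peak chr5:119710913-119711358, 40.5 kb beyond the Tbx3 start, CTCF scored 73961, 56 and 67117, and Rad21 had scores of 24199 in wt and 20114 in somKO with no mut peak. At chr5:118881840-118882113, without CTCF in any genotype, Rad21 scored 28482 in wt and 35947 in somKO and had no mut peak. The Tbx3os1 peak printed above, with CTCF scores of 4085, 152 and 6026, had Rad21 scores of 2432 in wt and 3876 in somKO and no mut peak. Other sites of the same runs were not lower in mut. At chr5:120087525-120088137, near Rbm19, CTCF scored 46, 6133 and 35311, and at chr5:120102839-120103074 it scored 27566, 27169 and 156644. Scores of separate lists also depend on depth, which is unknown, so the presence of a peak is the firmer measure.

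**Figure D5:**
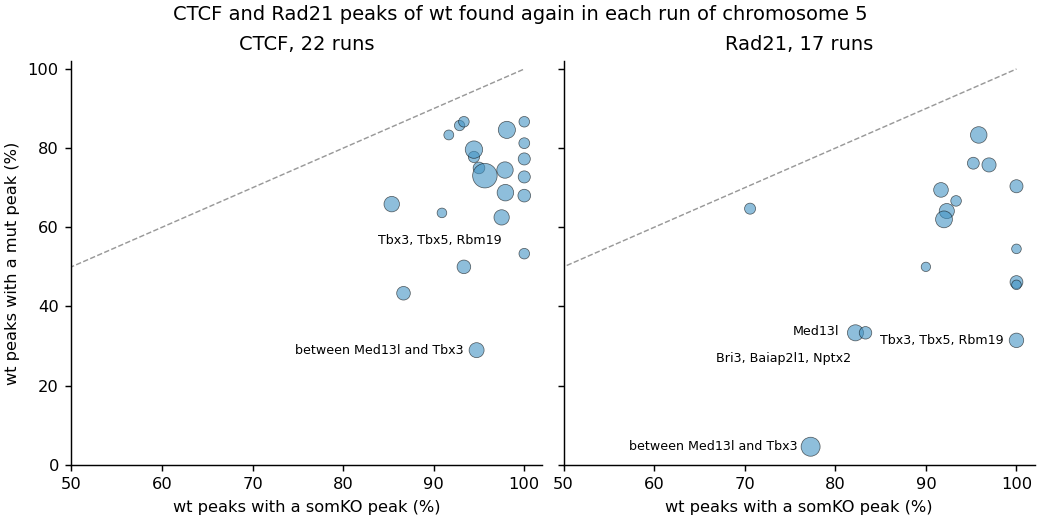
For each run of chromosome 5 with at least 10 wt peaks of CTCF (left, 22 runs) or Rad21 (right, 17 runs), the share of wt peaks in percent that overlap a peak of mut (vertical axis) against the share that overlap a peak of somKO (horizontal axis, starting at 50%). Larger points hold more wt peaks and the dashed line marks equal shares. The run between Med13l and Tbx3 lies lowest in both panels, at 28.9% for CTCF and 4.55% for Rad21 in mut.

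In sequence, the peaks were richer in G and C than the chromosome. In windows of 300 bp at the midpoint, the median GC content was 50.7% (quartiles 45.7 and 56.7), against 42.7% (37.3 and 47.7) in the 493034 tiles of 300 bp that cover chromosome 5. Promoter peaks stood apart with 66.7% GC and a median of 26.5 CpG sites, against 46.3% and 3 in tiles at promoters. Peaks in genes and between genes both had 49.3% and 4 CpG sites. Peaks in runs, at 50.0% without repeated sequence, had less GC than peaks outside runs (59.7%) and on the other autosomes (57.3%), and still more than the tiles. Of all peaks 17.5% were repeat-masked over at least 50% of the window, against 26.1% of the tiles.

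Short motifs were counted on both strands in the same windows, each on its own, so that matches of different motifs may overlap. The GC box GGGCGG, bound by Sp1 family factors, was in 16.1% of the peaks and 3.42% of the tiles. At promoters it was in 50.7% of the peaks and 12.6% of the tiles. The ETS motif CCGGAAG was in 3.78% (2.94 to 4.85) against 0.959% of the tiles. The AP-1 motif TGANTCA, which reads the same on both strands in its fixed letters, was in 11.1% (9.63 to 12.7) against 8.82% of the tiles, and was found at 14.7% of peaks at Rad21 alone. The TEAD motif GGAATG was in 16.2% (14.4 to 18.1) against 15.7% of the tiles, a difference within counting error, whereas peaks between genes held it in 19.5% (16.6 to 22.7) against 16.1% of tiles between genes. The repeat TGTGTGTGT was less frequent in the peaks than in the tiles, at 4.36% (3.45 to 5.49) against 7.29%, yet more frequent than at non-repeated peaks of the other autosomes, where it was in 1.57%. The CTCF core motif, in the strict form used here, was in 12 peaks, 0.769% (0.441 to 1.34) against 0.187% of the tiles. All 12 were on a wt CTCF peak, 10 of them with Rad21. None of the 987 peaks with neither protein held it, which allows a share of up to 0.388%. In runs GGGCGG was in 10.2% of the peaks and outside runs in 30.8%, while TGANTCA was in 10.7% and 12.1% and GGAATG in 178 of 1115 and 74 of 445 peaks. These matches describe letters in a window and say nothing of which factor was bound there.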

How the data were processed

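Per the methods of the study, the authors aligned reads with Bowtie2 to mm10 with the strain variants masked and called narrow peaks with MACS2 at q below 0.05 on reads of both alleles. Per the labels, the lists came from alignments merged over all replicates of a group. Versions and the use of input are not given in the sources used here. The deposited score of each peak was read as the whole part of 10 times −log10 q, inferred from the lowest value in each list. Of 52 samples, those of H3K27me3 and of input were not used here. Cells were crosslinked with EGS and formaldehyde for SmcHD1 and Rad21, and with formaldehyde alone for CTCF.

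Peaks overlapped when they shared 1 bp. A promoter reached 1 kb to either side of an annotated start. A peak was repeated when at least 50% of its words of 32 bases recurred in mm10. Genes and sequence came from the mm10 reference. Python 3.11.15, numpy 2.4.6, pandas 2.3.3, scipy 1.17.1 and pysam 0.24.0 were used. The code for overlaps, promoter and gene classes and Wilson intervals was tested on simulated data, and the motif code was not. The members, gene lists and motifs were chosen with earlier results of these data known. Named items were the 10 highest scores, the 10 genes with most peaks, the 5 densest windows, the gene lists and the sequences by rule, and any other named item was chosen after its values were seen. Some genes, 1 run and 1 sequence that these rules select are not reported here.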

Additional observations from a re-analysis of the deposited data

How the results depend on the processing

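Of 71 alternatives to 24 results, 24 kept a value within its limit and 47 moved it further. The limit was the counting interval for shares and medians, and a fixed ratio for counts and peaks per Mb. The order of mut and somKO turned for Rad21 under the strictest overlap. With a score of at least 50, chromosome 5 had 2.98 peaks per Mb, 22.7% of peaks at promoters and 38.8% in genes. The overlap was then 36.3% for wt, 36.3% for mut and 43.2% for somKO CTCF, and 41.2%, 39.2% and 51.7% for Rad21, while 3.60% of wt CTCF and 3.40% of wt Rad21 peaks met a SmcHD1 peak. Promoters of 2.5 kb took in 24.5% of peaks and left 37.4% in genes. Protein-coding genes alone gave 13.7% at promoters, 38.1% in genes and 48.1% between genes. Without repeated peaks 37.5% lay between genes, Rad21 overlap was 31.0%, 28.0% and 40.2% in wt, mut and somKO, and with runs called again on the remaining peaks 31.2% outside runs had neither protein (119 of 381, a set other than the 347 peaks of the report). An overlap of 50% of both peaks gave 7.37%, 6.15% and 7.56% for CTCF and 4.23%, 4.17% and 5.83% for Rad21, with 2.46% of wt CTCF and 1.30% of wt Rad21 peaks at SmcHD1. Under that rule the CTCF sites with a peak in mut and somKO came to 48.7% and 53.9%, and the Rad21 sites to 48.5% and 31.8%, the last of these with somKO below mut. Midpoints within 500 bp gave 20.5%, 19.4% and 23.4% for CTCF and 20.8%, 18.7% and 24.0% for Rad21, with neither protein at 76.1% in runs and 52.6% outside. Lists of equal length lowered the somKO overlap to 26.8% for CTCF and 34.0% for Rad21, and the shared sites with a somKO peak to 92.1% and 95.8%. Runs joined at 50 kb held 59.2% of peaks, of which 75.4% had neither protein. The alternatives to the runs were chosen after seeing the data. The causes of these moves were not tested.

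No paired analysis was possible because each group has 1 list of pooled replicates, and for the same reason leaving out single replicates was not run. Depth is unknown, so a missing peak says only that none was called.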
